A study of Mus musculus with 2 samples.

Results

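The Ccdc genes are a naming family: mouse genes called after a coiled-coil domain, a rod of wound alpha helices by which proteins pair and hold other proteins at a distance, and otherwise numbered. All genes whose name on the array was Ccdc followed by a number and at most 1 letter were taken, apart from Ccdc39, Ccdc40, Ccdc65, Ccdc67, Ccdc78, Ccdc153 and Ccdc164, which belong to the axonemal rulers, the nexin links and the multiciliated-cell programme. This gave 174 probes for 106 genes. Of these, 144 probes for 95 genes passed the scanner software's test of standing well above background, in either channel or in both, out of 21171 genes detected on the array. The other 11 genes, not detected in either lung, were Ccdc7, Ccdc42, Ccdc60, Ccdc63, Ccdc70, Ccdc73, Ccdc87, Ccdc105, Ccdc110, Ccdc121 and Ccdc129.

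The homozygous group was 1 lung of a Foxj1lacZ -/- embryo, labelled with Cy5, and the heterozygous group was 1 lung of a Foxj1lacZ +/- embryo, labelled with Cy3. Both were male litter mates at E16.5 on an Sv129/CD-1 hybrid background, so both carried the lacZ allele and neither was wild type. The titles call the material lung lobes and the source names call it lung epithelium. The protocol removed tissue outside the lobes and describes no isolation of epithelium. Both RNAs shared 1 array with no dye swap, so genotype and dye cannot be told apart. With 1 lung per genotype there was no replicate check and no test, and every ratio describes these 2 RNA samples.

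A motile cilium is built on an axoneme, a ring of microtubule doublets with dynein arms, held together by proteins that run along the doublets or inside their walls. Many of these proteins are coiled coils, and several Ccdc genes have been renamed Cfap (cilia and flagella associated protein) for that reason. Foxj1 is a forkhead transcription factor that drives motile ciliogenesis, and in the lung its product marks multiciliated cells of the airways. Other Ccdc proteins sit in centrioles and primary cilia, which nearly all cells have, and many have no link to cilia. Of the 95 detected genes, 8 were grouped as axonemal or flagellar and 18 as centriolar or of the primary cilium. The remaining 69 were split by their known roles, or left unassigned.

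The library check and the surroundings of these genes were as follows. Foxj1 stood at a normalised log2 intensity of 7.61 in the homozygous lung and 9.53 in the heterozygous lung, a log2 ratio of -1.92 ± 0.30. Whether its single probe targets sequence missing from the lacZ allele was not settled. Every ratio below is log2 of the homozygous over the heterozygous intensity. The value after ± is the error the scanner software gave for its own log ratio. That error covers spot and channel noise but not differences between animals or between probes. Counts past 2 scanner errors set the ratio reported here, not the scanner software's own ratio, against that error. Airway markers were measured in both lungs, with Scgb3a2, a secretoglobin, at 15.99 in the homozygous and 17.34 in the heterozygous lung. Several marker genes of other cell types also differed between the 2 RNA samples, not all in 1 direction. Of 6 genes listed as club cell markers 4 were at least 2-fold lower in the homozygous lung, from -3.19 to -1.35. Aldh1a7 (0.36) and Hoxa5 (0.48), on the same list, were above 0. Of 8 cardiac muscle markers 6 were at least 2-fold lower (range -3.52 to -0.07), and of 6 mesothelial markers 1 was (range -1.58 to 0.74). None of 10 cell cycle genes was (range -0.06 to 0.30). All of these markers were detected in both lungs, and their part in the results below was not tested. In whole lobes, fewer cells of a type and less RNA per cell cannot be told apart.

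The lowest ratios among the Ccdc genes belonged to axonemal ones. Ccdc113, Ccdc19 and Ccdc11 held the 3 lowest places and were the only detected members at least 2-fold lower in the homozygous lung. That is 3 of 95, or 3.16%, against 1.88% of all detected genes, and 3 of the 8 axonemal members. In the other direction 1 of 95 was at least 2-fold higher, or 1.05%, against 0.576% of all detected genes. The median ratio of all 95 was -0.03, with 51 below 0, against -0.003 for all detected genes, of which 50.4% were below 0.

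**Figure D1:**
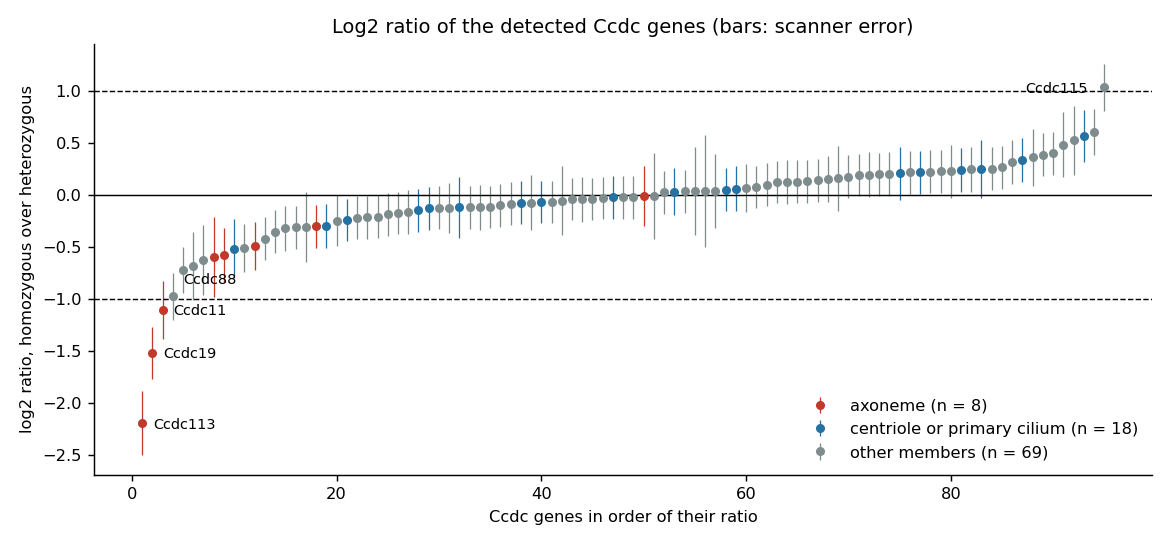
Each point is a detected Ccdc gene, in order of its log2 ratio of homozygous over heterozygous lung (y axis), with the scanner error as a bar and dashed lines at 2-fold in either direction. The 8 axonemal genes (red) take 7 of the 18 lowest places, and the 18 centriolar or primary cilium genes (blue) are spread from place 10 to place 93.

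Ccdc113 encodes an axonemal protein that in Tetrahymena forms a complex with Ccdc96 beside the nexin links. It was measured at a log2 intensity of 8.13 in the homozygous lung and 10.33 in the heterozygous lung. The ratio of -2.20 ± 0.31 makes it 4.59-fold lower, and 0.165% of all detected genes had a lower ratio. The scanner's mean spot signal before any correction was 384.9 in the homozygous channel and 988.7 in the heterozygous channel. The homozygous reading was thus already the lower before background correction and loess. The channels were not on a common scale at that stage, so these means do not give the size of the difference. For Ccdc22, with a ratio of 0.02, the mean spot signals were 10301.3 in the homozygous channel and 4930.5 in the heterozygous channel.

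Ccdc19, now Cfap45, encodes a protein found inside the wall of the axonemal doublets. Its log2 intensity was 9.52 in the homozygous lung and 11.04 in the heterozygous lung, 2.87-fold lower at -1.52 ± 0.25. Ccdc11, now Cfap53, is another protein of the doublet wall and is known for its part in left-right asymmetry. It was dimmer, at 7.03 in the homozygous lung and 8.14 in the heterozygous lung, 2.16-fold lower at -1.11 ± 0.28. The background offset of 50 pulls ratios of dim spots towards 0, and the scanner software's own ratio for this probe was -1.71, against -2.46 for Ccdc113 and -1.55 for Ccdc19. All 3 genes were seen by 1 probe each.

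The other 5 axonemal members were also below 0 but within 2-fold. Ccdc96, the Tetrahymena partner of Ccdc113, had a gene value of -0.60 ± 0.38 from probes that did not resemble each other. The first read 7.49 in the homozygous lung and 8.69 in the heterozygous lung, a ratio of -1.20. The second read 6.63 in both lungs, a ratio of 0.004, and passed the background test in the homozygous lung alone. Its first probe by itself would place the gene past 2-fold.

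Ccdc108, now Cfap65, is required for the sperm flagellum. Its probes read 6.72 and 8.06 in the homozygous lung, against 7.57 and 8.37 in the heterozygous lung, and the third probe was too dim to be kept. The gene value was -0.58 ± 0.26, from probe ratios of -0.85 and -0.31. Ccdc37, now Cfap100, belongs in Chlamydomonas to a complex that regulates the inner dynein arms, and it read 7.49 in the homozygous lung and 7.98 in the heterozygous lung (-0.49 ± 0.23). Both lay below 0 by more than 2 scanner errors.

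Ccdc103, needed to attach dynein arms to the axoneme, had 2 probes with ratios of -0.41 and -0.21 and a gene value of -0.31 ± 0.21. They read 9.01 and 8.10 in the homozygous lung, against 9.42 and 8.30 in the heterozygous lung. Ccdc38, a protein of the sperm tail, read 7.0 in both lungs (-0.01 ± 0.29). The axonemal group thus ran from a ratio of -2.20 to one near 0. Its remaining genes, Ccdc42, Ccdc63 and Ccdc105, known from sperm, were not detected.

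**Figure D2:**
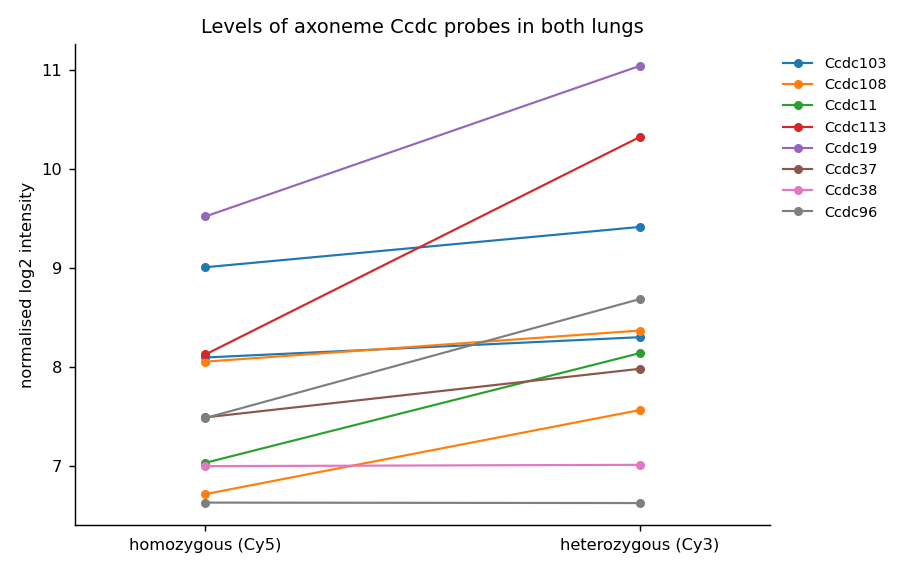
Normalised log2 intensity (y axis) of each detected probe of the 8 axonemal Ccdc genes in the homozygous and the heterozygous lung, with a line joining the values of a probe and 1 colour per gene. The lines of Ccdc113, Ccdc19, Ccdc11 and the first probe of Ccdc96 are the steepest, and those of Ccdc38 and the second probe of Ccdc96 are flat.

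Probes behind 4 of the larger differences and behind the disagreement in Ccdc96 are given here, without that of Ccdc11, since each ratio rests on hybridisation to these bases alone. They are the 60-base oligonucleotides of the deposited scanner file, written 5′ to 3′ with that file's mm8 coordinates, in lower case with no part singled out.
Ccdc113, chr8:98435175-98440381, plus strand: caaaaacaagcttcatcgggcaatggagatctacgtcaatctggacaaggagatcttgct
Ccdc19, chr1:174382410-174382469, plus strand: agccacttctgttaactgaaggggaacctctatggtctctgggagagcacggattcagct
Ccdc96, first probe, chr5:36803692-36803751, plus strand: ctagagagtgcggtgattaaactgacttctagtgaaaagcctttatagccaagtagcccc
Ccdc96, second probe, chr5:36804568-36804627, plus strand: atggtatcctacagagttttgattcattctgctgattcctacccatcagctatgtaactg
Ccdc88, chr19:6911673-6911732, minus strand: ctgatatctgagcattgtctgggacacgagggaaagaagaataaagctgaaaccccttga
Ccdc115, chr1:34381880-34381939, minus strand: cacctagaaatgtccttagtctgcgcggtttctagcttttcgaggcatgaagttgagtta
The Ccdc113 probe covers 5207 bases of genome with its 60 bases, so in the file's alignment it joins separate stretches. The Ccdc96 probes lie on the same strand and chromosome, the second downstream of the first.

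Taken as a group, the 8 axonemal members had a median ratio of -0.59, all 8 were below 0, and 5 were lower by more than 2 scanner errors. That median depended on which probes were kept, at -0.31 with no filter on dim probes and -1.20 above a log2 intensity of 8, and it is set beside the medians of other groups here as a description. Among all detected genes, 8.31% were lower and 3.84% higher by that measure. The 7 ciliary Ccdc genes left out of the set had a median of -0.79, again with all below 0. Their values were -3.20 ± 0.46 for Ccdc153, -2.28 ± 0.31 for Ccdc164 (now Drc1, a scaffold of the nexin links), -0.99 ± 0.26 for Ccdc39 and -0.79 ± 0.25 for Ccdc40, which together form the axonemal ruler, and -0.78 ± 0.23 for Ccdc67 (now Deup1, of the deuterosome). Ccdc65, also of the nexin links, was at -0.28 ± 0.21 and Ccdc78 at -0.26 ± 0.21. A list of 30 axonemal partners without a Ccdc name had 25 detected genes and a median of -0.67. Of the 25, 10 (40%) were lower by 2-fold or more, against 1.88% of all detected genes, and none was higher to that extent. Lowest were the inner arm light chain gene Dnali1 (-2.23), Enkur (-2.03), Tekt2 (-1.95) and Rsph4a (-1.69), and highest were Nme7 (0.11) and Mns1 (0.34). Rsph4a and Iqub (-1.26), both among the 10, passed the background test in the heterozygous lung alone. They were thus kept through the lung in which they are higher. All of these come from the same 2 RNA samples, and no test set the groups against each other.

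**Figure D3:**
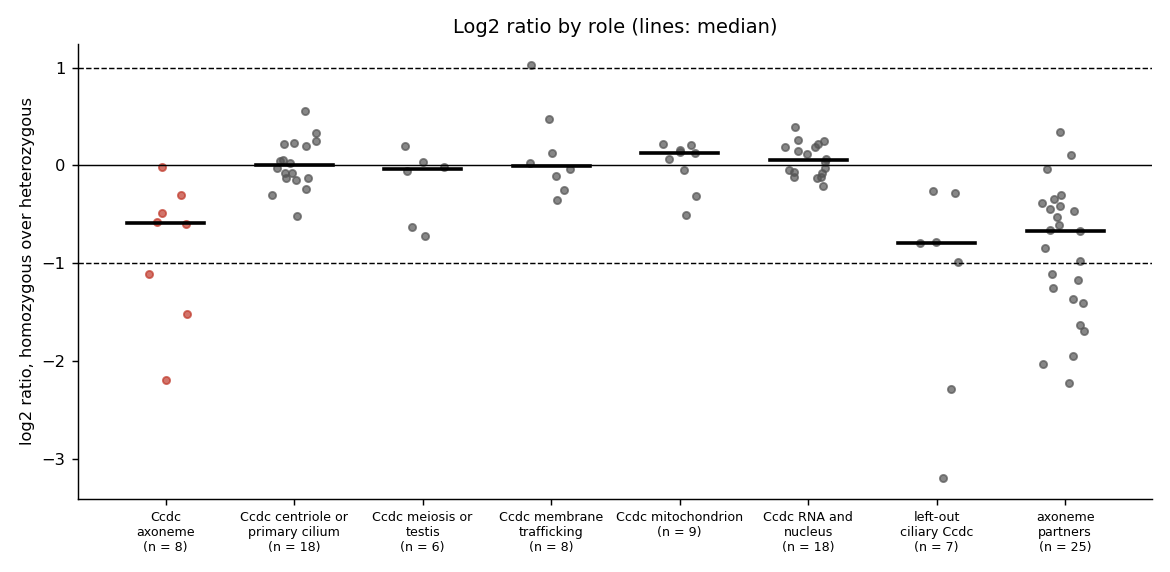
Log2 ratio of homozygous over heterozygous lung (y axis) for Ccdc genes by role, with the left-out ciliary Ccdc genes and axonemal partners at the right. Each point is a gene, thick lines are medians and dashed lines mark 2-fold. The medians are -0.59 for axonemal Ccdc genes, -0.79 for left-out ciliary Ccdc genes and -0.67 for axonemal partners, and those of the other Ccdc roles shown lie between -0.03 and 0.13.

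Members of the centriole and the primary cilium were centred on 0. All 18 on the array were detected, their median was 0.0003, 9 were below 0 and none was 2-fold lower or higher. The lowest was Ccdc13, a centriolar satellite protein, with 6.81 in the homozygous lung and 7.33 in the heterozygous lung (-0.52 ± 0.28). It was followed by Ccdc15, of the inner centriole wall (-0.30 ± 0.21), Ccdc68, of the subdistal appendages (-0.24 ± 0.21), Ccdc104, now Cfap36 (-0.15 ± 0.20), and Ccdc123, now Cep89, of the distal appendages that dock centrioles to the membrane (-0.13 ± 0.20).

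The highest was Ccdc21, now Cep85, a centrosomal protein, with 7.83 in the homozygous lung and 7.27 in the heterozygous lung (0.56 ± 0.25). It was the only member of this group whose reported ratio was past 2 scanner errors. The scanner software's own ratios, -0.81 for Ccdc13 and 0.63 for Ccdc14, were past 2 errors as well. Ccdc46, now Cep112, stood at 0.33 ± 0.21 and the satellite protein Ccdc14 at 0.25 ± 0.28. For Ccdc46 the probes disagreed, at -0.08 and 0.74. Pooled with the axonemal members, the 26 known ciliary genes had a median of -0.10 with 17 below 0, a value that rests on the 8 axonemal ones. The pooled median changed sign, to 0.17, under median centring, used instead of loess, which moved the median of all detected genes to 0.22 and left the axonemal median at -0.63.

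The 69 members outside the axonemal and centriolar lists had a median of 0.02, with 34 below 0, none lower and 1 higher by 2-fold or more. Of these, 17 had no role assigned, and absence from the lists does not show that a gene has no part in cilia. The higher one was Ccdc115, which encodes an assembly factor of the proton-pumping V-ATPase. It read 12.46 in the homozygous lung and 11.43 in the heterozygous lung, 2.05-fold higher at 1.03 ± 0.23, from 1 probe. At the low end Ccdc88, whose transcript accession now belongs to Ccdc88b, a Hook-related protein of immune cells, came close to the 2-fold limit. It read 9.61 in the homozygous lung and 10.59 in the heterozygous lung, 1.97-fold lower at -0.98 ± 0.23.

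Below Ccdc88 in size came Ccdc89, whose product binds the Notch effector Hey1, with 8.21 in the homozygous lung and 8.93 in the heterozygous lung (-0.72 ± 0.22). Ccdc81 read 6.68 in the homozygous lung and 7.36 in the heterozygous lung (-0.68 ± 0.33), and Ccdc83 read 6.65 in the homozygous lung and 7.28 in the heterozygous lung (-0.63 ± 0.34). Both of the last are dim, and the scanner software's own ratios for them were -1.48 and -1.45, past 2-fold. Next in order were Ccdc109b, now Mcub, the dampening subunit of the mitochondrial calcium uniporter (-0.51 ± 0.23), Ccdc5, now Haus1, of the augmin complex of the spindle (-0.42 ± 0.21), and Ccdc53, now Washc3, of the WASH complex on endosomes (-0.36 ± 0.21). Ccdc28a (-0.33 ± 0.21), Ccdc90a, now Mcur1 (-0.31 ± 0.21), and Ccdc32, which helps assemble the clathrin adaptor AP2 (-0.31 ± 0.34), completed the 10 lowest.

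At the high end, after Ccdc115, stood Ccdc122, with 9.20 in the homozygous lung and 8.60 in the heterozygous lung (0.60 ± 0.22). Ccdc116 passed the background test in the homozygous lung alone, and was 1.44-fold higher there, at 0.52 ± 0.33. Its bound equals this ratio, since its own dim heterozygous reading set it, so 1.44-fold is not a minimum. Under other settings Ccdc116 ran from 0.18 to 1.47. A second probe for it was not well above background. Ccdc93, a subunit of the endosomal CCC complex, had probe ratios of 0.37 and 0.59 and a gene value of 0.48 ± 0.31. It was followed by Ccdc86, a nucleolar protein (0.40 ± 0.21), the secreted Ccdc134 (0.38 ± 0.21), Ccdc125 (0.36 ± 0.27) and Ccdc117 (0.31 ± 0.21). In all, 5 of the 69 were lower and 2 higher by more than 2 scanner errors. Among all detected genes the shares were 8.31% lower and 3.84% higher, so these counts do not set the 69 apart. Ccdc27 and the meiotic telomere gene Ccdc79, now Terb1, also passed only the background test, and only in the homozygous lung, with ratios of -0.01 and 0.03, and no bound above 1 could be set for them.

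By role, none of these groups had a median further than 0.17 from 0. The 18 genes of RNA processing, chromatin and the nucleus had a median of 0.05 and ran from -0.21 for Ccdc72, now Tma7, to 0.40 for Ccdc86. The 9 mitochondrial members had a median of 0.13 and ran from Ccdc109b to Ccdc127 (0.22 ± 0.21). In this group Ccdc109a, now Mcu, the pore of the same uniporter, stood at 0.16 ± 0.31. The 8 genes of membrane traffic had a median of -0.01 and ran from Ccdc53 to Ccdc115. In the CCC complex, the partner of Ccdc93 is Ccdc22, which stood at 0.02 ± 0.20.

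The 6 detected genes of meiosis or the testis had a median of -0.03 and ran from Ccdc89 to Ccdc36, now Iho1, of meiotic recombination (0.20 ± 0.21), while 4 of the 10 on the array were not detected. The 4 secreted members had a median of -0.08 and ran from the matrix-associated Ccdc80 (-0.19 ± 0.21) to Ccdc134. The 4 genes of signalling or cell junctions had a median of -0.05 and ran from Ccdc88 to Ccdc50, an adaptor of receptor signalling (0.22 ± 0.21). The 3 spindle genes had a median of -0.17 and ran from Ccdc5 to Ccdc99, now Spdl1, which brings dynein to kinetochores (0.19 ± 0.21). For the 17 with no role assigned the median was 0.03, from Ccdc81 to Ccdc122.

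Different probes of a gene gave a measure of how far a single ratio can be trusted. Of the 95 genes, 39 had several detected probes, and the SD between probes of a gene was 0.28 for them, against 0.27 over 7144 genes of the array and 0.057 between repeated spots of a probe. In 20 of the 39 the probes lay on both sides of 0. These were Ccdc16, Ccdc28b, Ccdc43, Ccdc46, Ccdc52, Ccdc55, Ccdc58, Ccdc66, Ccdc77, Ccdc82, Ccdc85a, Ccdc85b, Ccdc91, Ccdc92, Ccdc94, Ccdc96, Ccdc100, Ccdc117, Ccdc126 and Ccdc131. No matching share over the array is given here, so the count of 20 does not set the Ccdc genes apart. The gap between probes of a gene exceeded 1 log2 unit only in Ccdc96. After it came Ccdc117, with -0.10 and 0.73, and Ccdc46. Ccdc55, now the splicing regulator Nsrp1, ranged from -0.51 to 0.20 over 4 probes.

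**Figure D4:**
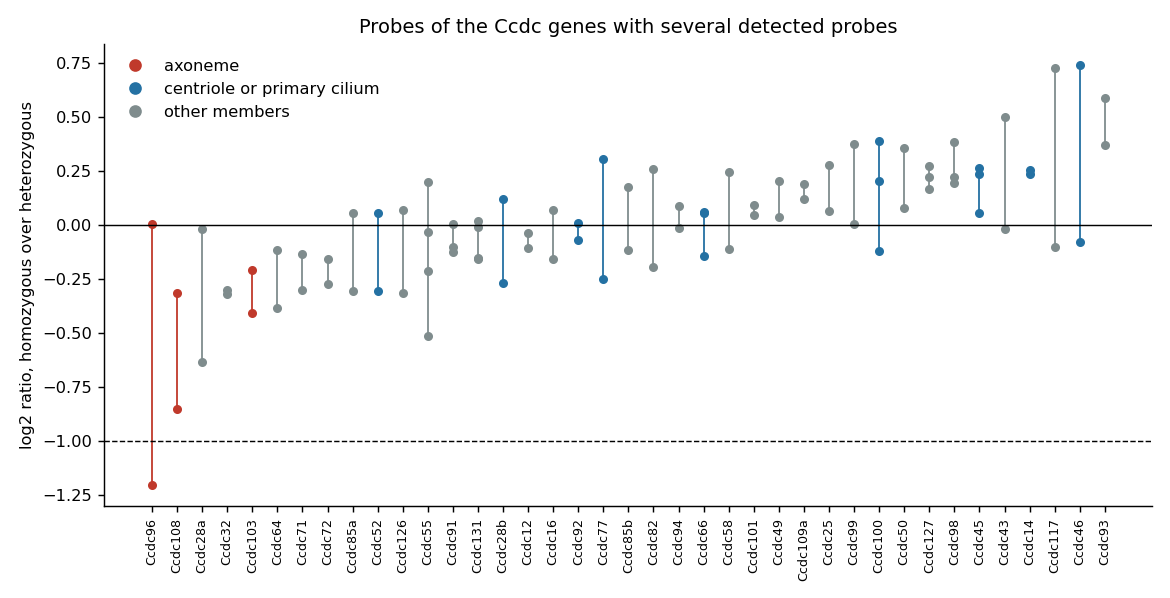
Log2 ratio of homozygous over heterozygous lung (y axis) for every detected probe of the 39 Ccdc genes that had more than 1, with a line from the lowest to the highest probe of a gene. Ccdc96 has the longest line, from -1.20 to 0.004, and none of these genes has all its probes below the dashed 2-fold line.

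The ends of the order held under other processing to unequal degrees. Ccdc113 ran from -2.46 to -1.81 over 9 other settings and Ccdc19 from -1.58 to -1.02, both at least 2-fold lower in all 9. Ccdc11 ran from -1.71 to -1.11 in the 8 settings that kept it, past 2-fold in each. Ccdc115 ran from 1.03 to 1.61 and was past 2-fold in all 9. Each of these genes has 1 probe, so settings that only select probes or spots returned the reported value and are no check. Only median centring, offset 0 and the scanner software's ratio could differ from it. Ccdc88, Ccdc81, Ccdc83 and Ccdc96 were past 2-fold in 3 settings each. For Ccdc96 these all gave its first probe alone, at -1.20. For the others they were offset 0, the scanner software's ratio and the series matrix. The scanner software's ratio and the series matrix gave the same ratios for all the genes named here, so they are not separate checks. All 8 axonemal members were below 0 in every setting that kept them, Ccdc103 by as little as -0.03 and Ccdc38 by -0.01.

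**Figure D5:**
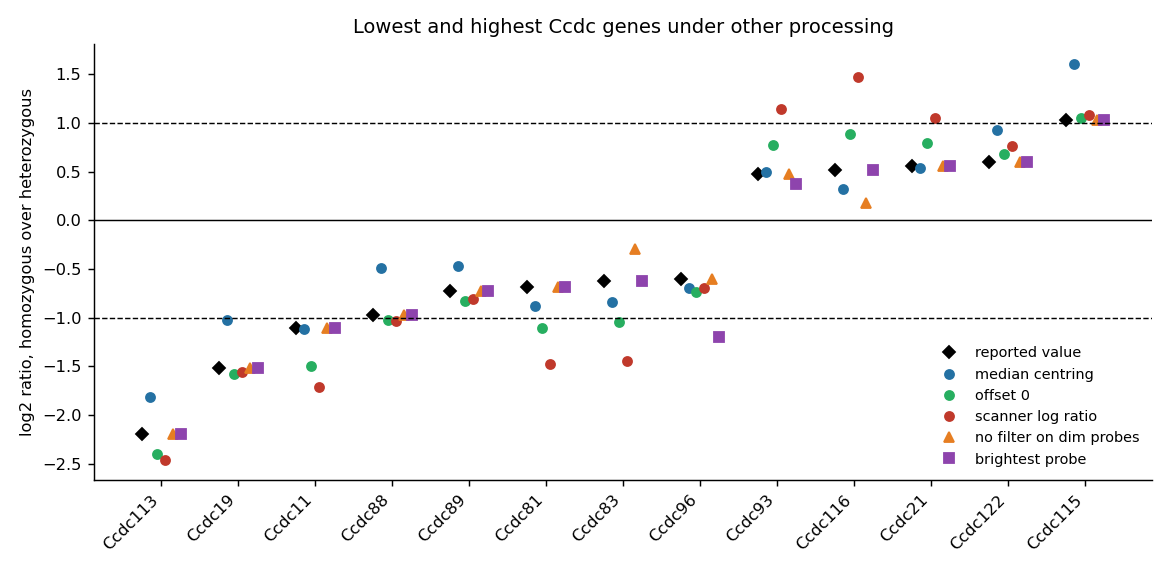
Log2 ratio of homozygous over heterozygous lung (y axis) for the 8 lowest and 5 highest Ccdc genes, as reported (black) and under 5 other ways of processing the array (colours), with dashed lines at 2-fold. Ccdc113, Ccdc19 and Ccdc11 stay below the lower line and Ccdc115 above the upper one. Ccdc88, Ccdc81 and Ccdc83 cross a line with offset 0 and with the scanner software's own ratio. Ccdc93, Ccdc116 and Ccdc21 cross one with the scanner software's ratio only, and Ccdc96 with its brightest probe.

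The promoters of these genes were read for letters that Foxj1 and its Rfx partners are known to recognise: GTAAACA, a forkhead core, and GTTGCCA, part of the X-box bound by Rfx factors, on both strands. Windows of 250 bases before to 50 bases after the start site came from RefSeq (GRCm38.p6), and 79 of the 95 genes had one. None of the 6 axonemal members with a window held either motif. The forkhead core was in 2 of the 79 (2.53%), against 4.05% of 27025 genes in the table, and the X-box part in 6 (7.59%), against 5.02%. The 14 centriolar members with a window had 2 with the X-box part, Ccdc13 and Ccdc46, and none with the forkhead core. Among the 10 lowest ratios of all members, Ccdc89 and Ccdc13 were the only ones with a match, and their windows are shown for that reason, 5′ to 3′ on the strand of the gene, with matched letters in capitals.
Ccdc89, chr7:90426062-90426361, plus strand: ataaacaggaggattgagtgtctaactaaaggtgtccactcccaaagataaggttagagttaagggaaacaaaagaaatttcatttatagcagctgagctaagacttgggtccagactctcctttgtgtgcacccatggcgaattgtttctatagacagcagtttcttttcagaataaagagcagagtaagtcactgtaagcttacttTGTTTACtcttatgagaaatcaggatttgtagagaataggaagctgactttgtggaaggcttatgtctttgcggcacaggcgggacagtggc
Ccdc13, chr9:121839412-121839711, minus strand: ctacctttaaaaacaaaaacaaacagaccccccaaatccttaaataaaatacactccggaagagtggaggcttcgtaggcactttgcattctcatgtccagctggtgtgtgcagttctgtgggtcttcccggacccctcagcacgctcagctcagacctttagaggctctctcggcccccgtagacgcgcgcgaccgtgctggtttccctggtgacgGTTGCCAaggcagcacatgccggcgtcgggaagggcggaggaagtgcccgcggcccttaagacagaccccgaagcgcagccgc
The match begins 42 bases before the start site in Ccdc89, which holds the forkhead core on the opposite strand, and 33 bases before it in Ccdc13, which holds the X-box part on the strand of the gene. A match is a description of letters, and its absence says only that these letters are not in this window.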

How the data were processed

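Both RNA samples were read on 1 two-colour Agilent array, whose scanner file was deposited in 2 identical copies. The deposited values are intensity readings (spot mean and local background) on a linear scale, made with Agilent Feature Extraction 9.5.3.1 per the submitters' processing notes. The log10 ratio of red over green processed intensity and its error were deposited by the authors in the same file. By comparison with the scanner values, the deposited series matrix is linear processed intensity, multiplied by 1.68 and floored at 15, with each sample in its labelled channel and no centring (medians 138.8 homozygous and 139.8 heterozygous). Why it was rescaled is unknown.

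Mean signals were corrected by normexp with an offset of 50, and ratios were loess-normalised using limma 3.58.1 under R 4.3.3 and giving control spots a weight of 0, after a check on simulated data. Of 43379 spots, 169 outlier spots were left out and 0 were saturated. Well above background were 75.6% of spots in the homozygous and 69.0% in the heterozygous channel. A gene took the median of its probes that passed the background flag in either channel. Symbols in the file were kept for the Ccdc genes, and current symbols came from a RefSeq gene table through accession, symbol or synonym, for all 95 genes; 36 differ from the file. A bound is the level in the measured channel over the higher of the gene's own level in the other channel and the lowest level of any probe well above background there.

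With 1 sample per group no p-value was computed. A difference was counted at 2-fold. The genes, role lists and named-gene rule were chosen with earlier results of these data known. The rule named the axonemal and centriolar members past 2-fold with the 5 lowest and 3 highest of each, the 10 lowest and 8 highest other members, the ends of each role, genes measured in 1 channel, and genes whose probes differ. Summaries were made in pandas 2.3.3.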

Additional observations from a re-analysis of the deposited data

How the results depend on the processing

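No paired analysis was possible because each genotype has 1 sample. The count of known ciliary members at least 2-fold lower was 3 or 4 in every alternative that kept the 2-fold limit, and no called gene changed sign. At a fold of 1.5 the count past that lower limit was 4. Above a log2 intensity of 8 the 3 were not the same genes, since Ccdc11 was not kept and Ccdc96 entered at -1.20. With median centring the medians were 0.17 (known ciliary), 0.37 (centriole or primary cilium) and 0.42 (other members), with all genes at 0.22 and 724 genes 2-fold higher. The axonemal median was -0.79 with offset 0, -0.84 with the scanner software's ratio or the series matrix, -0.85 with probes above background in both channels, -0.31 with no filter on dim probes, -0.80 with the brightest probe and -1.20 above a log2 intensity of 8, which leaves fewer genes. The brightest probe also gave -0.20 for known ciliary and -0.080 for centriolar members. Other members at least 2-fold lower numbered 3 with offset 0, the scanner's ratio or the matrix. Members at least 2-fold higher numbered 4 with the scanner's ratio or the matrix. A fold of 1.5 gave 4 other members lower and 2 members higher. All detected genes 2-fold lower and higher numbered 773 and 221 with offset 0, 1143 and 593 with the scanner's ratio, 1139 and 457 with the matrix, and 1243 and 444 at a fold of 1.5. The cause of these shifts was not tested, apart from the fold of 1.5, which lowers the limit itself. Dim probes limit precision, for example for Ccdc11, Ccdc81, Ccdc83 and Ccdc116.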

Other observations

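Of genes now called Ccdc with a number, 35 more were detected under another name in the file, such as a RIKEN clone name, and these were gathered after the data had been seen. Their median log2 ratio was -0.11, with 26 of 35 below 0 and none 2-fold lower or higher. The lowest of the 35 were Ccdc173, now counted among proteins inside the axonemal doublets, with 7.48 in the homozygous lung and 8.43 in the heterozygous lung (-0.95 ± 0.24), Ccdc17 (-0.95 ± 0.23) and Ccdc74a (-0.88 ± 0.22). Ccdc151, which docks outer dynein arms, was at -0.43 ± 0.31 from probes at -0.98 and 0.12, and Ccdc181, a protein of ciliary microtubules, at -0.39 ± 0.21. The centriolar Ccdc138 (0.22 ± 0.25) was the highest.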
